A study of Mus musculus with 6 samples.

Results

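The mouse genome holds 7 genes for inhibitors of cyclin-dependent kinases (CDKs), and all 7 were among the 41128 genes of the deposited expression table. They were chosen by name, Cdkn1a, Cdkn1b and Cdkn1c for the Cip/Kip family and Cdkn2a, Cdkn2b, Cdkn2c and Cdkn2d for the Ink4 family. Of the 7, 6 had reads in at least 1 library and 5 had a mean of at least 1 RPM, the minimum for the fit across genes; RPM is here the deposited normalized read value less its offset of 1. The libraries came from poly(A) RNA of marrow cells of C57BL mice, sorted as LTR-HSC, blood stem cells of long-term repopulating capacity (lineage-negative, Sca1+, c-Kit+, CD41-, CD48-, CD150+). Animals received YH250, which the submitters call a p300/catenin antagonist, at 2 mg/kg under the skin (3 libraries), or the vehicle DMSO (3 libraries), and marrow was collected 16 h later. The libraries of each group are numbered 1 to 3. What a number means, how many animals a library holds and how old they were are not in the labels, so the p-values measure the spread between these libraries, which may be technical.

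CDK inhibitors are small proteins that hold back the cell cycle. Ink4 proteins bind CDK4 and CDK6 and keep them from D-type cyclins, whereas Cip/Kip proteins bind complexes of CDKs with cyclins and block above all CDK2. Held-back CDKs leave the retinoblastoma protein unphosphorylated and E2F target genes silent. In blood stem cells, p57 (Cdkn1c) is known for its part in quiescence, p21 (Cdkn1a) is a target of p53, p27 (Cdkn1b) restrains progenitor divisions, and p16Ink4a and p19Arf, which share the gene Cdkn2a, are kept silent by Polycomb proteins such as Bmi1.

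Start-site sequences were matched by symbol in RefSeq for 6 of the 7 genes on GRCm38.p6, each covering 250 bases before the start and 50 after it. The starts of 3 genes are printed, because Cdkn2a, with both starts silent, and Cdkn2d, the highest per length, are the extremes of the Ink4 family, and Cdkn1b is a Cip/Kip gene between them. Capitals mark 3 kinds of motif on either strand: the GC box, read as GGGCGG, the box read as CCAAT, and the E2F motif, read as TTTCGCGC, with TTTGGCGC as a second form and TTTCCCGC as another. The TCF/LEF motif, read as CTTTG followed by AA, TA, TT or AT, lay in no window of these genes.
Cdkn2a, upstream start (p19Arf), chr4:89294570-89294869, minus strand: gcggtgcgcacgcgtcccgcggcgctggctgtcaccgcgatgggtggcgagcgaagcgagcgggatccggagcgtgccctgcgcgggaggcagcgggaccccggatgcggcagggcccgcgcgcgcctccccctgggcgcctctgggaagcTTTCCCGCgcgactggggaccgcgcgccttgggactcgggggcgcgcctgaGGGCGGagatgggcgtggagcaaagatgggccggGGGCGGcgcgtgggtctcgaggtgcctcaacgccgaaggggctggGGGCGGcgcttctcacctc
Cdkn2a, downstream start (p16Ink4a), chr4:89282143-89282442, minus strand: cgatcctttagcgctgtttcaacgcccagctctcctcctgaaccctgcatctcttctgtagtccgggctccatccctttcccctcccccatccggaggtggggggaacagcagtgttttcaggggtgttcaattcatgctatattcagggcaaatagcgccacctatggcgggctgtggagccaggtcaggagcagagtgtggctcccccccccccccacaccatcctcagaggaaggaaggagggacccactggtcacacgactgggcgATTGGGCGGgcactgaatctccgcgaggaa
Cdkn2d, chr9:21291160-21291459, minus strand: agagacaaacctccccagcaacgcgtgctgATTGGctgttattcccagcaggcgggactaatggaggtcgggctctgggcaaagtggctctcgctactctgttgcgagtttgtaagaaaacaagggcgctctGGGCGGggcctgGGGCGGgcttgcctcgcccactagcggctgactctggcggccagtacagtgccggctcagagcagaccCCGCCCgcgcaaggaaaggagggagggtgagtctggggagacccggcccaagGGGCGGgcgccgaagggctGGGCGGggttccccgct
Cdkn1b, chr6:134920151-134920450, plus strand: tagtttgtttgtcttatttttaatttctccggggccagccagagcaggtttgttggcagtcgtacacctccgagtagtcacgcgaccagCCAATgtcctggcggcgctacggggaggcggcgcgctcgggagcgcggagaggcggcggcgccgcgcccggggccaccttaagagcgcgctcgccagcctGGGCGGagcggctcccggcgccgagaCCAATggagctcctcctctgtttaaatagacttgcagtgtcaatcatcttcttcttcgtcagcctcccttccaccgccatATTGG
A GC box lay in 35.7% of the 32851 mouse start windows, a CCAAT box in 37.4%, an E2F motif in 1.84% and a TCF/LEF motif in 16.9%. The upstream Cdkn2a window held 3 GC boxes, 1 E2F motif and 45 CpG dinucleotides, more CpGs than 98.1% of the windows. The downstream one held 12 CpGs, 1 GC box and 1 CCAAT box, and these boxes overlap. The Cdkn2d window held 5 GC boxes and 22 CpGs, and that of Cdkn1b 3 CCAAT boxes, 1 GC box and 30 CpGs. These matches describe letters and show no binding.

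Among the Cip/Kip genes, Cdkn1a was even across the libraries and Cdkn1c varied the most. Cdkn1a (chromosome 17, 29090976 to 29100727) stood at 31.0, 30.8 and 40.2 RPM in YH250 1, 2 and 3, against 33.5, 29.8 and 41.6 RPM in DMSO 1, 2 and 3. Within each group the library numbered 3 was the highest, and the groups overlapped. The SD of its log2(RPM + 1) over the 6 libraries was 0.20, and 9.48% of the 2585 tested genes of like mean level (within 0.5 on the log2 scale) had a smaller one.

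Cdkn1b (chromosome 6, 134920401 to 134925513) stood at 17.05, 13.0 and 27.7 RPM in YH250 1, 2 and 3, against 17.3, 17.5 and 34.2 RPM in DMSO 1, 2 and 3. Again both libraries numbered 3 lay above the other 4. Its values rested on 325.3 to 750.2 reads and did not fall on whole reads.

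Cdkn1c (chromosome 7, 143458339 to 143461050), an imprinted gene expressed from the maternal copy, stood at 41.9, 31.4 and 2.71 RPM in YH250 1, 2 and 3, against 56.6, 15.9 and 8.47 RPM in DMSO 1, 2 and 3. The libraries numbered 3 were the lowest in both groups, and the highest library exceeded the lowest by 20.9 times. The lowest value rested on 65 reads and the highest on 1476, so counting error is small beside this range. Its SD on the log2 scale was 1.49, above that of 98.7% of the 2570 tested genes of like mean level. Strand use in counting is not stated in the labels, and 625 exonic bases of Cdkn1c overlap the antisense gene Gm44732, so reads of the pair cannot be told apart. The same holds for Cdkn1a, which shares 273 exonic bases with AC167363.2, a gene model on the opposite strand.

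In the Ink4 family, Cdkn2a was silent in these data, Cdkn2b close to silent, and Cdkn2c and Cdkn2d expressed. Cdkn2a (chromosome 4, 89274471 to 89294653) was listed at 0 in all 6 libraries, in which 1 read was worth 0.0321 to 0.0455 RPM, so that 0 reads allow a level of up to 0.0962 to 0.137 RPM (3 reads, counting error only). A gene-level value would hold reads from either start. Its neighbour Mtap, a methionine salvage enzyme gene 93389 bases away, stood at 78.9, 45.65 and 60.1 RPM in YH250 1, 2 and 3, against 60.1, 58.1 and 69.0 RPM in DMSO 1, 2 and 3.

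Cdkn2b (chromosome 4, 89306299 to 89311039), which encodes p15 and lies 11645 bases from Cdkn2a, had 0, 0 and 0.667 RPM in YH250 1, 2 and 3, against 0.0384, 0.0368 and 1.46 RPM in DMSO 1, 2 and 3. In reads these are 0, 0 and 16 for YH250 and 1, 1 and 32 for DMSO. Nearly all its reads came from the libraries numbered 3, in both groups. With a mean of 0.222 ± 0.385 RPM in YH250 and 0.511 ± 0.820 RPM in DMSO (SD, n = 3 each) it was under the minimum of the fit, and an exact two-sided permutation test of the groups gave p = 0.5, where 0.1 is the smallest value that 3 against 3 allows.

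Cdkn2c (chromosome 4, 109660876 to 109667189), the gene for p18, stood at 5.42, 16.2 and 16.7 RPM in YH250 1, 2 and 3, against 13.2, 6.62 and 17.5 RPM in DMSO 1, 2 and 3. The libraries numbered 1 and 2 changed places between the groups. Cdkn2d (chromosome 9, 21288410 to 21291407), the gene for p19Ink4d, stood at 56.6, 53.2 and 37.8 RPM in YH250 1, 2 and 3, against 45.6, 39.3 and 35.4 RPM in DMSO 1, 2 and 3. It was higher in YH250 at each number, the groups overlapped, and the libraries numbered 3 were the lowest of each group.

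**Figure D1:**
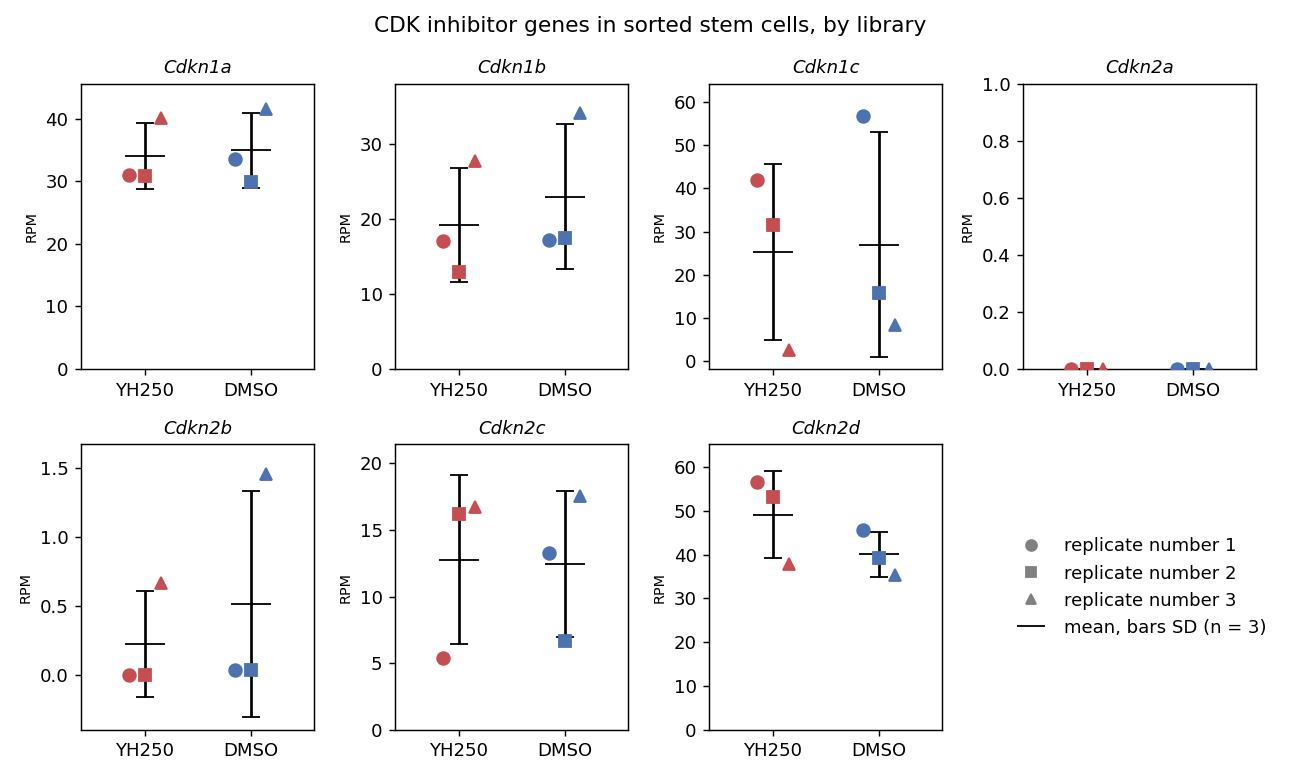
RPM of the 7 CDK inhibitor genes in each library, with YH250 left and DMSO right; marker shapes give the replicate number, horizontal lines the mean and bars the SD of 3 libraries. Cdkn1c spans 2.71 to 56.6 RPM with both triangles (number 3) lowest, Cdkn1a stays between 29.8 and 41.6 RPM, and Cdkn2a is at 0 throughout.

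Levels of different genes were compared per kilobase of annotated exon (GENCODE M21), where the order of means was Cdkn2d, Cdkn1c, Cdkn1a, Cdkn2c, Cdkn1b, Cdkn2b and Cdkn2a. Cdkn2d averaged 31.2 ± 6.37 RPM per kb in YH250 and 25.5 ± 3.27 RPM per kb in DMSO (SD, n = 3 each) and was the highest of the 7 in 6 of 6 libraries. Cdkn1c averaged 12.4 ± 9.94 RPM per kb in YH250 and 13.2 ± 12.7 RPM per kb in DMSO, and Cdkn1a 9.57 ± 1.499 RPM per kb in YH250 and 9.84 ± 1.69 RPM per kb in DMSO. These neighbours did not differ beyond their spread, as Cdkn1c was above Cdkn1a in 3 of 6 libraries. Cdkn1a was above both Cdkn2c and Cdkn1b in 6 of 6 libraries. Cdkn2c, at 4.76 ± 2.37 RPM per kb in YH250 and 4.64 ± 2.05 RPM per kb in DMSO, and Cdkn1b, at 4.23 ± 1.67 RPM per kb in YH250 and 5.05 ± 2.13 RPM per kb in DMSO, also changed places, with Cdkn2c higher in 3 of 6.

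The make-up of the Cip/Kip family therefore differed between libraries. Per kb, Cdkn1c took 62.2%, 57.2% and 7.10% of the family's summed level in YH250 1, 2 and 3, against 67.8%, 38.9% and 17.8% in DMSO 1, 2 and 3. Cdkn1a took 26.5%, 32.2% and 60.4% in YH250 1, 2 and 3, against 23.0%, 41.9% and 50.1% in DMSO 1, 2 and 3. Cdkn1c was the main Cip/Kip transcript in YH250 1, YH250 2 and DMSO 1, and Cdkn1a in DMSO 2 and in both libraries numbered 3. Cdkn2d held 94.7%, 84.9% and 78.2% of the Ink4 sum per kb in YH250 1, 2 and 3, against 85.4%, 90.9% and 74.8% in DMSO 1, 2 and 3.

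The main comparison asked which transcripts differ after YH250, and no CDK inhibitor gene passed it. With limma on log2(RPM + 1), 0 of 13597 genes (0%) had an adjusted p under 0.05, and 231 genes (1.7%) had an unadjusted p under 0.05, with none of the 5 tested inhibitors among them. With the replicate block those counts were 0 (0%) and 1012 (7.44%), again with no inhibitor. Without the block, the log2 difference, YH250 minus DMSO, was -0.04 ± 0.26 (SE) for Cdkn1a and -0.24 ± 0.39 for Cdkn1b. It was -0.28 ± 1.07 for Cdkn1c, -0.01 ± 0.52 for Cdkn2c and 0.27 ± 0.25 for Cdkn2d. For all 5 genes the limma adjusted p was 0.999. With the block the SE became 0.21, 0.26, 0.40, 0.44 and 0.20 in that order, with a limma adjusted p of 0.705 to 0.994. The median over all tested genes was 0.02.

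The intervals give the range of change that each fit allows, and all include a fold of 1. For Cdkn1a the 95% interval of the fold between YH250 and DMSO ran from 0.652 to 1.46, for Cdkn2d from 0.811 to 1.802, for Cdkn1b from 0.458 to 1.57 and for Cdkn2c from 0.439 to 2.24. For Cdkn1c it ran from 0.140 to 4.85 in this fit, and from 0.442 to 1.54 with the replicate number as a block. By number, the log2 difference of Cdkn1c was -0.43, 0.94 and -1.35 at numbers 1, 2 and 3, and that of Cdkn2c -1.15, 1.17 and -0.06. The difference of Cdkn2d was 0.30, 0.43 and 0.09, and that of Cdkn1b -0.02, -0.40 and -0.29, so these genes kept 1 sign, within an error that includes 0. Without DMSO 3 the Cdkn1b value was 0.076, and without YH250 3 the Cdkn1c value was 0.83.

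**Figure D2:**
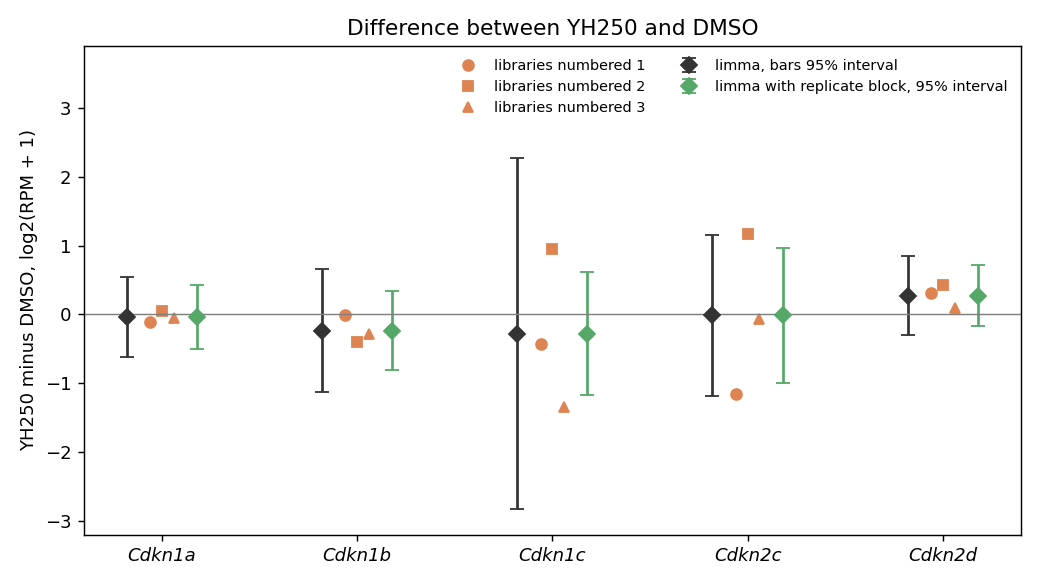
Difference between YH250 and DMSO on the log2(RPM + 1) scale for the 5 tested genes; diamonds with bars are limma estimates with 95% intervals, without (black) and with (green) the replicate block, and orange markers are the differences at each replicate number. All intervals include 0, and that of Cdkn1c is the widest of the 5.

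The libraries differed by number in marker transcripts, which touches each result that follows. Stem cell marker transcripts summed to 195 and 266 RPM in the libraries numbered 3, YH250 first, against 736 and 930 RPM in those numbered 1. Those numbered 2 had 822 and 835 RPM. In the fit of number 3 minus number 1, 8 of the 9 markers were lower and none higher at an adjusted p under 0.05. By the same threshold 6 of 6 markers of multipotent and lymphoid-primed progenitors and 7 of 7 tested B cell markers were higher. Of all tested genes 2.96% passed as lower and 5.6% as higher. Progenitor markers summed to 1467 and 1559 RPM in number 3, against 75.3 and 60.4 RPM in number 1. Number 2 lay between, at 510.5 and 403 RPM. There 6 of 6 progenitor markers were higher than in number 1 and 4 passed, where 0.177% of all tested genes passed as higher. The B cell factor Pax5 was near 0 in every library (up to 0.273 RPM). The genes of the sort markers did not move one way. Of those the gate was to exclude, Cd48 stood at 252 and 258 RPM in number 3, against 13.1 and 10.2 RPM in number 1 (log2 difference 4.35, limma adjusted p = 3.9e-05), while Itga2b, the gene for CD41, stood at 7.13 and 5.65 RPM in number 3, against 37.4 and 43.7 RPM in number 1 (-2.49, adjusted p = 0.00319). Of those it was to keep, Slamf1, the gene for CD150, was lower in number 3 than in number 1 (-3.18, adjusted p = 0.0184). This was not particular to number 3. For number 2 minus number 1 the Slamf1 difference was -3.66, which did not pass (adjusted p = 0.0738). Number 3 minus number 2 gave 0.48 (adjusted p = 0.694). Ly6a, the gene for Sca1, was higher in number 3 than in number 1 (1.47, adjusted p = 0.00152), and Kit did not pass (-0.66, adjusted p = 0.0554). The Kit result depended on scaling. Under rescaling to the sum over genes, and under quantile normalization, all 5 sort genes passed, 2 as higher and 3, Kit among them, as lower. In bulk RNA, fewer cells of a type and less RNA per cell cannot be told apart.

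Cdkn1c was lower in the libraries numbered 3. Its mean was 5.59 RPM there, against 49.3 RPM in number 1, and the log2 difference was -3.07 ± 0.49 (SE, limma adjusted p = 0.00547), with treatment as a second term and 2 libraries per number. Of all tested genes 1164 passed between these numbers (8.56%), 403 of them lower in number 3 (2.96%) and 761 higher (5.6%), and 0.147% had a difference below that of Cdkn1c. The call was lost with limma's variance prior set without trend and robust estimation (adjusted p = 0.0557) and with no minimum mean (adjusted p = 0.101), and held when each library was left out in turn (adjusted p up to 0.0165). Stem cell markers were also lower in number 3 than in number 1. In number 2 they summed to 822 and 835 RPM, against 736 and 930 RPM in number 1. Gene by gene, 7 of the 9 markers were lower in number 2 than in number 1 and 2 higher. Their median log2 difference was -0.34, against 0.01 over all tested genes, and 0 passed. The unadjusted limma p was under 0.05 for 5 of the 9, against 14.3% of all tested genes. Cdkn1c averaged 23.6 RPM in number 2, against 49.3 RPM in number 1. The part of these markers in the result was not tested.

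Against the libraries numbered 2, whose mean was 23.6 RPM, the Cdkn1c difference was -1.98 ± 0.49 (SE, limma adjusted p = 0.0454), where 858 tested genes passed (6.31%), 359 lower (2.64%) and 499 higher (3.67%). That call rested on single libraries, as it was -1.06 without YH250 2 (adjusted p = 0.0992) and -1.17 without YH250 3 (adjusted p = 0.304). It was also lost under 3 of the other alternatives, which left the difference at -1.98 without trend and robust estimation (adjusted p = 0.149) and with no minimum mean (adjusted p = 0.241), and at -2.09 with a pseudocount of 0.5 (adjusted p = 0.0505). In YH250 2 the endothelial and stromal markers summed to 428 RPM, against 113 to 131 RPM in the other 5 libraries, with the stromal chemokine Cxcl12 at 202 RPM and the collagen gene Col1a1 at 0.291 RPM. Their part in its Cdkn1c level was not tested. For number 2 minus number 1, where 24 genes were higher (0.177%) and 3 lower (0.0221%), 27 in all (0.199%), the difference was -1.09 ± 0.49 (limma adjusted p = 0.356), but it ran from -0.17 without DMSO 2 (adjusted p = 0.815) to -2.01 without YH250 2 (adjusted p = 0.00997).

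With all 6 libraries no other inhibitor passed between numbers, although the numbered-3 libraries were extreme for each. Of the 5 tested genes, 3 had both libraries numbered 3 as the highest of the 6 (Cdkn1a, Cdkn1b and Cdkn2c) and 2 as the lowest (Cdkn1c and Cdkn2d), a pattern noticed in the values. Of all tested genes 19.9% had them highest and 14.3% lowest. Cdkn1b averaged 30.9 RPM in number 3, against 17.2 RPM in number 1, with a log2 difference of 0.81 ± 0.31 (SE, limma adjusted p = 0.151, unadjusted p = 0.0286). Against number 2 the Cdkn1b difference was larger, at 0.98 ± 0.31 (limma adjusted p = 0.0916, unadjusted p = 0.0113). Unadjusted p was under 0.05 in 24.4% of tested genes for number 3 minus number 1, in 25.3% for number 3 minus number 2 and in 14.3% for number 2 minus number 1. For number 3 minus number 1 the Cdkn1b difference stayed at 0.81 when DMSO 2 or YH250 2 was left out. The difference became a call in these fits, in which 1 library stood for number 2 and more of all genes passed. With each library rescaled to the sum over its genes it was 0.47 (adjusted p = 0.385). Cdkn2c gave 0.92 ± 0.53 (adjusted p = 0.330), from 0.071 without YH250 1 to 1.77 without DMSO 1. Cdkn2d gave -0.46 ± 0.24 (adjusted p = 0.280), and -0.82 after that rescaling (adjusted p = 0.0601). Cdkn1a gave 0.33 ± 0.26 (adjusted p = 0.473), and -0.018 when each library was rescaled to the sum over its genes. Cdkn2b, in a fit with no minimum mean over 27592 genes, gave 0.99 (limma adjusted p = 0.180).

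**Figure D3:**
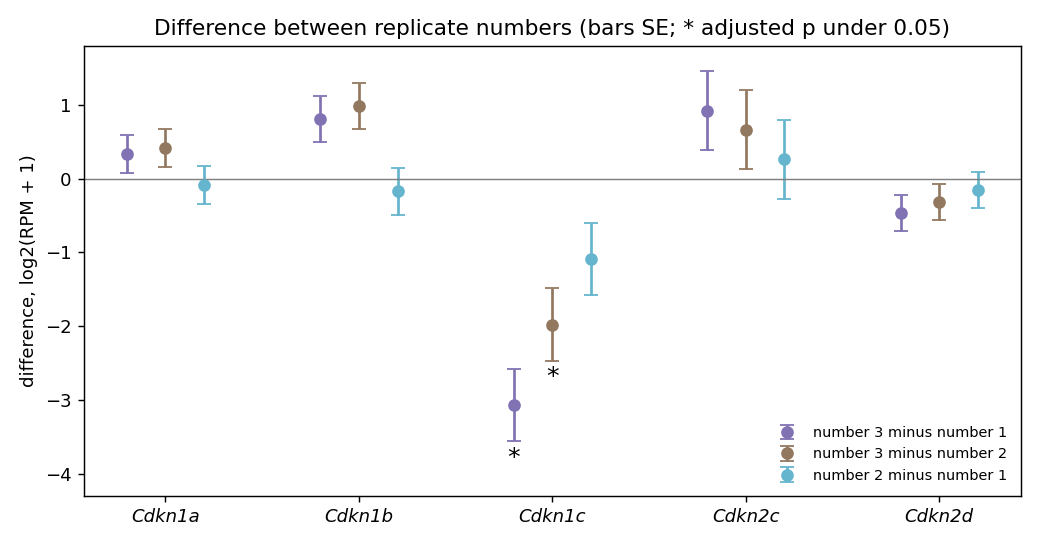
Differences between replicate numbers on the log2(RPM + 1) scale for the 5 tested genes, from a limma fit with treatment as a second term; bars are SE and asterisks mark an adjusted p under 0.05. Only Cdkn1c carries asterisks, for number 3 minus number 1 (-3.07) and number 3 minus number 2 (-1.98).

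The kinases, cyclins and pathway genes around the inhibitors gave no call between treatments. Of 12 CDK and cyclin genes, 10 were higher in mean in YH250 (median log2 difference 0.23, against 0.02 over all tested genes), and 0 passed. With libraries rescaled to the sum over genes 8 of the 12 were higher (median 0.14, against -0.07 over all tested genes). After quantile normalization 8 were higher as well (0.17, against -0.01). By unadjusted p the first were Ccna2, the cyclin of S phase, at 58.1 ± 15.8 RPM in YH250 and 41.7 ± 30.7 RPM in DMSO, and Cdk4, the Ink4 target, at 385 ± 37.1 RPM in YH250 and 319 ± 62.6 RPM in DMSO (SD, n = 3 each). Of 11 genes of the Rb family and E2F factors 4 were higher (median -0.08), and the smallest p was that of E2f5, at -1.23. Of 9 genes of ubiquitin ligases that degrade Cip/Kip proteins 7 were higher (median 0.23). Of 14 genes of the p53 pathway and Foxo factors, 7 were higher and 7 lower. The smallest p was that of Gtse1, which encodes a negative regulator of p53, at 11.8, 19.0 and 16.1 RPM in YH250 1, 2 and 3, against 2.03, 0.147 and 7.88 RPM in DMSO 1, 2 and 3. Gtse1 did not pass (log2 difference 2.38 ± 0.70, SE, limma adjusted p = 0.999, unadjusted p = 0.00774). Trp53, the gene for the activator p53 of Cdkn1a, stood at 353, 517 and 307 RPM in YH250 1, 2 and 3, against 267, 308 and 181 RPM in DMSO 1, 2 and 3. It was higher in YH250 at each number, with overlapping groups (log2 difference 0.64, limma adjusted p = 0.999). Of 15 Polycomb genes 6 were higher, with a median of -0.09, and Kdm6b, a demethylase that opposes them, had the smallest p, at -0.46. With libraries rescaled to the sum over genes 3 of the 15 were higher, and after quantile normalization 5. Among 18 proliferation genes 16 were higher in YH250 (median 0.45) and 0 passed.

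Between numbers some partners differed. Cdk6, a kinase that Ink4 proteins bind, stood at 99.97 and 107 RPM in number 3 (YH250 and DMSO), against 34.3 and 34.7 RPM in number 1 (log2 difference 1.56, limma adjusted p = 0.00399). Ccnb1, a mitotic cyclin, was also higher (1.18, adjusted p = 0.0299), and Ccnd3, a D-type cyclin, lower (-0.79, adjusted p = 0.0456). As deposited, 2 of the 12 CDK and cyclin genes passed as higher and 1 as lower, where 5.6% and 2.96% of all tested genes did. With libraries rescaled to the sum over genes, 1 of the 12 passed as higher and 2 as lower. Cks1b, which helps the ligase subunit Skp2 mark p27 for degradation, rose by 1.20 (adjusted p = 0.00891). E2f2 rose by 2.21 (adjusted p = 0.0379) and Ezh2, a Polycomb methyltransferase, by 0.98 (adjusted p = 0.0215), but after rescaling to the sum over genes 0 of the 11 Rb and E2F genes and 0 of the 15 Polycomb genes passed. Of the p53 targets, Trp53inp1 rose by 2.39 (adjusted p = 0.00076) and Bbc3, a cell death gene, changed by -1.42 (adjusted p = 0.0492). Proliferation genes were higher in 18 of 18 (5 passed) on the deposited scale, where 5.6% of all tested genes passed as higher. They were higher in 11 of 18 (2 passed) when libraries were rescaled to the sum over genes, and in 12 of 18 (2 passed) after quantile normalization. Over all genes 1356 and 1303 passed in either direction under these 2 scalings, and the share higher was not computed. Rescaling to the sum over genes moved the median of all tested genes for number 3 minus number 1 to -0.28, against 0.04 as deposited.

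Cdkn1c lies in an imprinted domain whose noncoding RNA Kcnq1ot1 silences it on the paternal copy. Of 8 tested genes of the domain list, 7 were lower in number 3 than in number 1 and 3 passed as lower, where 2.96% of all tested genes did, with a median of -0.71. Under rescaling to the sum over genes, and likewise under quantile normalization, 6 of the 8 passed as lower. Over all genes 1356 and 1303 passed in either direction under these scalings, against 1164 as deposited. The share that passed as lower was not computed for them. Phlda2, a growth-restraining placental gene, stood at 1.63 and 4.37 RPM in number 3 (YH250 and DMSO), against 21.4 and 22.7 RPM in number 1 (log2 difference -2.62, limma adjusted p = 0.00982). Tssc4 (-1.18, adjusted p = 0.0179) and Nap1l4 (-0.81, adjusted p = 0.0436) also fell. Kcnq1ot1 stood at 234, 292 and 194 RPM in YH250 1, 2 and 3, against 556, 405 and 318 RPM in DMSO 1, 2 and 3. Kcnq1ot1 did not pass between treatments (log2 difference -0.81, limma adjusted p = 0.999). The potassium channel gene Kcnq1, which shares its locus with Kcnq1ot1, was listed at 0 in all 6 libraries, and reads of such antisense pairs cannot be told apart without strand. On the other side of Cdkn1c, 12685 bases away, Slc22a18 stood at 3.50 and 2.05 RPM in number 3, against 5.45 and 7.25 RPM in number 1 (-0.98, adjusted p = 0.257).

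**Figure D4:**
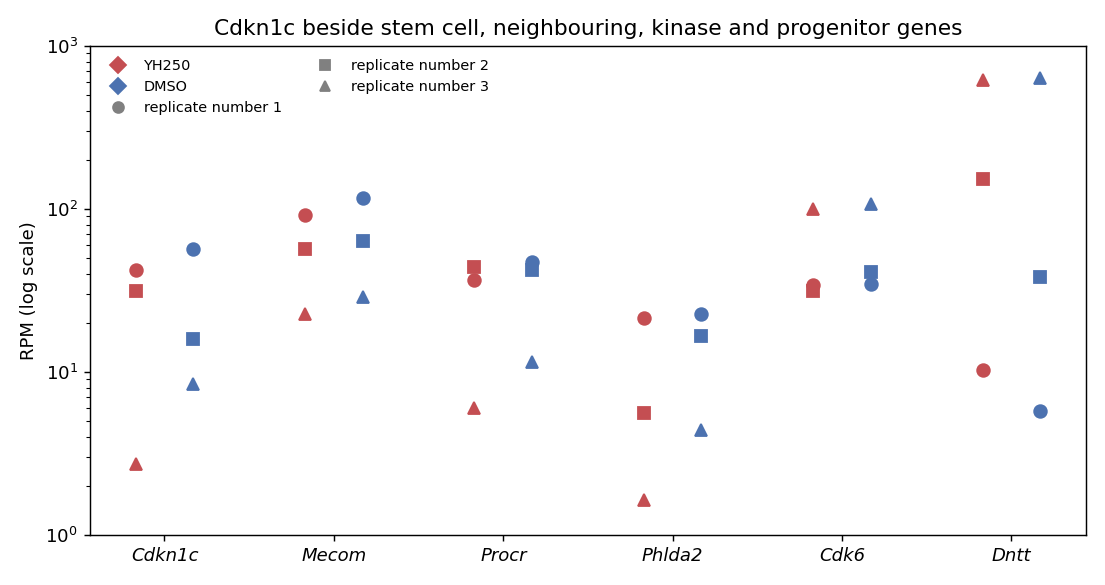
RPM on a log axis in each library (YH250 left, DMSO right, marker shape for the replicate number) of Cdkn1c, the stem cell genes Mecom and Procr, the domain neighbour Phlda2, the kinase gene Cdk6 and the progenitor gene Dntt. In both groups the libraries numbered 3 are lowest for Cdkn1c, Mecom, Procr and Phlda2 and highest for Cdk6 and Dntt.

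The genes with the most similar course over the 6 libraries were found by Pearson's r of log2(RPM + 1) among 9116 named tested genes with an SD of at least 0.3. The 6 points come in pairs of 1 number, so r is a description only. Closest to Cdkn1c were the Polycomb gene Cbx6 (r = 0.996), the tight junction gene Ocln (0.996) and the collagen gene Col16a1 (0.993). Cbx6 stood at 56.8, 55.7 and 19.1 RPM in YH250 1, 2 and 3, against 64.7, 40.0 and 30.4 RPM in DMSO 1, 2 and 3. Closest to Cdkn1a were the nuclear lamina gene Tmpo (0.996), Cdv3 (0.993) and the prostaglandin synthase gene Ptgs2 (0.988). Cdkn1b was followed by Zscan26, Wasf2 and Mrpl41 (0.993 to 0.995), and Cdkn2d by Ttll7, Calml4 and Mad1l1 (0.982 to 0.993). For Cdkn2c the leading values were lower, with Snx30 (0.971), Rgl1 (0.967) and Pdgfrb (0.961).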

How the data were processed

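Poly(A) RNA libraries (3 YH250, 3 DMSO) were made with a full-length ultra-low-input cDNA kit and read as single ends, per the labels' protocols. Per the submitters' processing notes, TopHat2 2.0.8, CASAVA 1.8.2, Partek and mm10 were used, in roles not stated. Annotation and strand use were not given in the sources used here. A deposited table, made by the authors, holds a normalized signal per gene. Its unit was inferred from the values: the lowest is exactly 1, and low values rise in steps of one size, so value minus 1 was read as RPM, with 1 read worth 0.0321 to 0.0455 RPM. Of values up to 20 reads, 57.5% to 64.8% lay within 0.1 of a whole read, so no count model was used. Genes summed to 699979 to 959240 RPM per library.

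Symbols matched 40254 of 41128 IDs. The 13597 genes averaging 1 RPM or more were tested on log2(RPM + 1) with limma 3.58.1 in R 4.3.3 (trend and robust), Benjamini-Hochberg over all of them, threshold 0.05. Folds on this scale understate low genes. Scripts were tested on simulated data. Positions and exon lengths come from GENCODE M21 (GRCm38, or mm10). Deviations of same-numbered libraries from their group means correlated at 0.551, 0.256 and 0.696. The main treatment fit had no block, and a fit with the replicate number as a block was run as an alternative. The members, gene lists and tests were chosen with earlier results of these data known. Named genes are the members, the 2 list genes of smallest p in each contrast, those that pass, nearest neighbours and the 3 most similar genes; a selection is printed. Marker genes (Cd48, Pax5, Cxcl12, Col1a1, Mecom, Procr, Dntt) were chosen after their values were seen.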

Additional observations from a re-analysis of the deposited data

How the results depend on the processing

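Over 85 values of the 5 tested inhibitors between YH250 and DMSO under the alternatives, 0 passed and the lowest limma adjusted p was 0.478; 13 changed sign. With the replicate number as a block the count over all genes stayed at 0 (smallest adjusted p = 0.660; unadjusted p under 0.05 in 1012 genes, against 231 without it), and the block changed no call of an inhibitor. The block without both libraries numbered 1, 2 or 3 gave 9, 4 and 57 genes, none of them an inhibitor. Reversed values were 0.0019 for Cdkn2c with a pseudocount of 5, 0.55 and 0.012 for Cdkn2c with the block and without numbers 1 or 3, and 0.26 for Cdkn1c with the block and without number 3. Leaving out 1 library gave -0.16 to 0.092 for Cdkn1a, -0.52 to 0.076 for Cdkn1b, -0.93 to 0.83 for Cdkn1c and -0.38 to 0.47 for Cdkn2c.

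For number 3 minus number 1, genes past the threshold were 1164, but 526 without trend and robust estimation, 180 with no minimum mean, and 417 (without DMSO 3), 457 (without DMSO 1), 2917 (without DMSO 2) and 3010 (without YH250 2) when 1 library was left out, where the lone library of a number is assumed to vary like the others. Cdkn1c stayed at -3.07 under the first pair, past the threshold in neither, and lay between -3.87 and -2.26 when 1 library was left out. Cdkn1b lay between 0.64 and 0.97, and Cdkn1a reversed to -0.018 after rescaling. For number 3 minus number 2, all genes past the threshold ran from 250 to 3137 (858 with all libraries), and for number 2 minus number 1 from 39 to 1764 (27 with all libraries) when 1 library was left out. Without trend and robust estimation, and with no minimum mean, these counts were 154 and 42 for number 3 minus number 2 and 0 and 0 for number 2 minus number 1, which had 75 with a minimum mean of 5 RPM and 46 after quantile normalization. For number 3 minus number 2, Cdkn1c lost its call under 5 of 14 alternatives, and Cdkn2c ran from -0.23 to 1.55 over libraries left out; for number 2 minus number 1 Cdkn2c ran from -0.63 to 1.15. The causes were not tested. Cdkn2b rested on at most 32 reads in a library.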
